A study of Mus musculus with 3 samples.

Results

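The TGF-β ligands *Tgfb1*, *Tgfb2* and *Tgfb3*, the receptors *Tgfbr1*, *Tgfbr2* and *Tgfbr3*, and the latent TGF-β binding proteins *Ltbp1*, *Ltbp2*, *Ltbp3* and *Ltbp4* were chosen by gene symbol, as 10 of the 32285 genes in the count files. They were followed through the stromal vascular fraction (SVF) of inguinal white fat from mice of 4 weeks, in 1 single-cell RNA sequencing (scRNA-seq) library for each of 3 genotypes. The wild-type library served as the control. The *Mgp*-KO library came from mice with a global deletion of *Mgp*, bred from carriers of the Mgptm1Kry allele, and the *Pd*-KO library from mice with floxed *Mgp* alleles (*Mgp* flox/flox) and a Pdgfra-cre transgene, which deletes *Mgp* in cells that have expressed *Pdgfra*. No library of floxed mice without Cre was analysed here, so both knockouts were set against wild-type mice. Each library pooled several mice of both sexes, and the cells had been sorted as live and CD45 negative before capture, so leukocytes were largely removed and lipid-filled adipocytes were lost with the floating fraction. Cells with at least 2000 UMIs (unique molecular identifiers, 1 per captured transcript) and at most 10% mitochondrial UMIs were kept, which left 10511 cells of wild-type mice, 12575 of *Mgp*-KO and 8819 of *Pd*-KO mice.

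TGF-β is secreted in a latent form, folded inside its own propeptide. The propeptide is bound by a latent TGF-β binding protein (LTBP), which anchors the complex to fibrillin microfibrils of the extracellular matrix, until integrins, proteases or thrombospondin release the ligand. Active TGF-β binds the type II receptor encoded by *Tgfbr2*, which phosphorylates the type I receptor ALK5, encoded by *Tgfbr1*. ALK5 in turn activates SMAD2 and SMAD3. The type III receptor betaglycan, encoded by *Tgfbr3*, presents ligand and is the main route by which TGFB2 reaches the signaling receptors. In adipose tissue the pathway is known for suppressing adipocyte differentiation and for driving matrix production. MGP is an extracellular inhibitor of the related bone morphogenetic proteins (BMPs).

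The 3 ligand genes differed in where they were transcribed, and the promoters of *Tgfb1* and *Tgfb2* are shown. The RefSeq promoter table (GRCm38.p6) matched 8 of the 10 genes, and neither *Tgfb3* nor *Tgfbr3*. The 250 bases before the transcription start of *Tgfb1* lie on the plus strand of chromosome 7, at chr7:25686752-25687001, and those of *Tgfb2* on the minus strand of chromosome 1, at chr1:186705990-186706239. Both are printed 5′ to 3′, with the letters searched for in capitals on either strand.
Tgfb1: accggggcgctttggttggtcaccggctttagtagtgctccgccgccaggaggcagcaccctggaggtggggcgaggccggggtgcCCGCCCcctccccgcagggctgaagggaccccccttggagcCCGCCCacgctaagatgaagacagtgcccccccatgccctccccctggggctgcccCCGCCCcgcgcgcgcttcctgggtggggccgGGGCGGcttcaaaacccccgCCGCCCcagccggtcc
Tgfb2: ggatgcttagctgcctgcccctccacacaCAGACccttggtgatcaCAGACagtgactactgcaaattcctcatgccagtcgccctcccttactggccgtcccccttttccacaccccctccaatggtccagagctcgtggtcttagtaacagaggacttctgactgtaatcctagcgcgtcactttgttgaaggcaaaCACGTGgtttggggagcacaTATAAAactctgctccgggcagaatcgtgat
The capitals mark GGGCGG (the Sp1 GC box), TATAAA (the TATA box), CACGTG (an E-box of the USF kind), TGACGTCA (the cyclic AMP response element) and CAGAC (the Smad binding element), or their reverse complements. None of the marked letters overlapped in either promoter. The *Tgfb1* promoter held 5 GC boxes and none of the other 4 motifs, and 75.2% of its bases were G or C, more than in 96.1% of 32817 promoters. In the *Tgfb2* promoter, 53.6% of bases were G or C, and it held a TATA box starting 31 bases and a USF E-box 51 bases before the start, with 2 CAGAC matches farther up. Among all promoters, 32.72% held GGGCGG, 12.37% TATAAA, 6.02% CACGTG, 1.55% TGACGTCA and 42.2% CAGAC. These are matches of letters and no measurement of binding.

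Cells were assigned to types by marker genes that include neither the 10 genes nor *Mgp*. Stromal cells (the *Pdgfra* lineage) numbered 7590 in wild-type, 11084 in *Mgp*-KO and 6836 in *Pd*-KO mice. Within them, separate gates held interstitial progenitor cells (*Dpp4* and *Pi16*; 2342, 5682 and 4398 cells), preadipocytes (*Icam1* and *Fabp4*; 2868, 1840 and 837) and Areg cells, a stromal population with *F3* and *Gdf10* that is known for restraining adipogenesis (734, 542 and 412). Endothelial cells (774, 221 and 673), smooth muscle cells (577, 108 and 122), pericytes (302, 46 and 348) and luminal mammary epithelial cells (307, 548 and 109) had at least 20 cells in every library and were tested. Basal epithelial cells (31, 119 and 19), Schwann and neural crest cells (138, 14 and 43), adipocytes (86, 22 and 11), neurons (87 in wild-type) and leukocytes (5, 5 and 24) are described by their values. A level is given in CPM, the UMIs of a gene scaled so that all genes sum to 1000000, over the cells of a type in a library, in the order wild-type, *Mgp*-KO and *Pd*-KO.

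The median cell held 12802, 6445 and 8269 UMIs. The targeted gene followed the labels: *Mgp* was at 502.7, 1.90 and 0.998 CPM in stromal cells, and in pericytes at 706 CPM in wild-type and 634 CPM in *Pd*-KO mice, with no UMI in the *Mgp*-KO pericytes, which allows up to 16.5 CPM. Cells with *Xist* and no Y-linked UMI made up 35.1%, 60.6% and 32.5% of the libraries. The headers give version 4 of Cell Ranger for wild-type and 7.1.0 for both knockouts, and the study's methods state default parameters for another version, which no header names. Later versions of Cell Ranger are known to count reads from introns by default and earlier ones not to, and which setting made each file is not given in the sources used here. This difference cannot be told apart from the genotype.

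**Figure D1:**
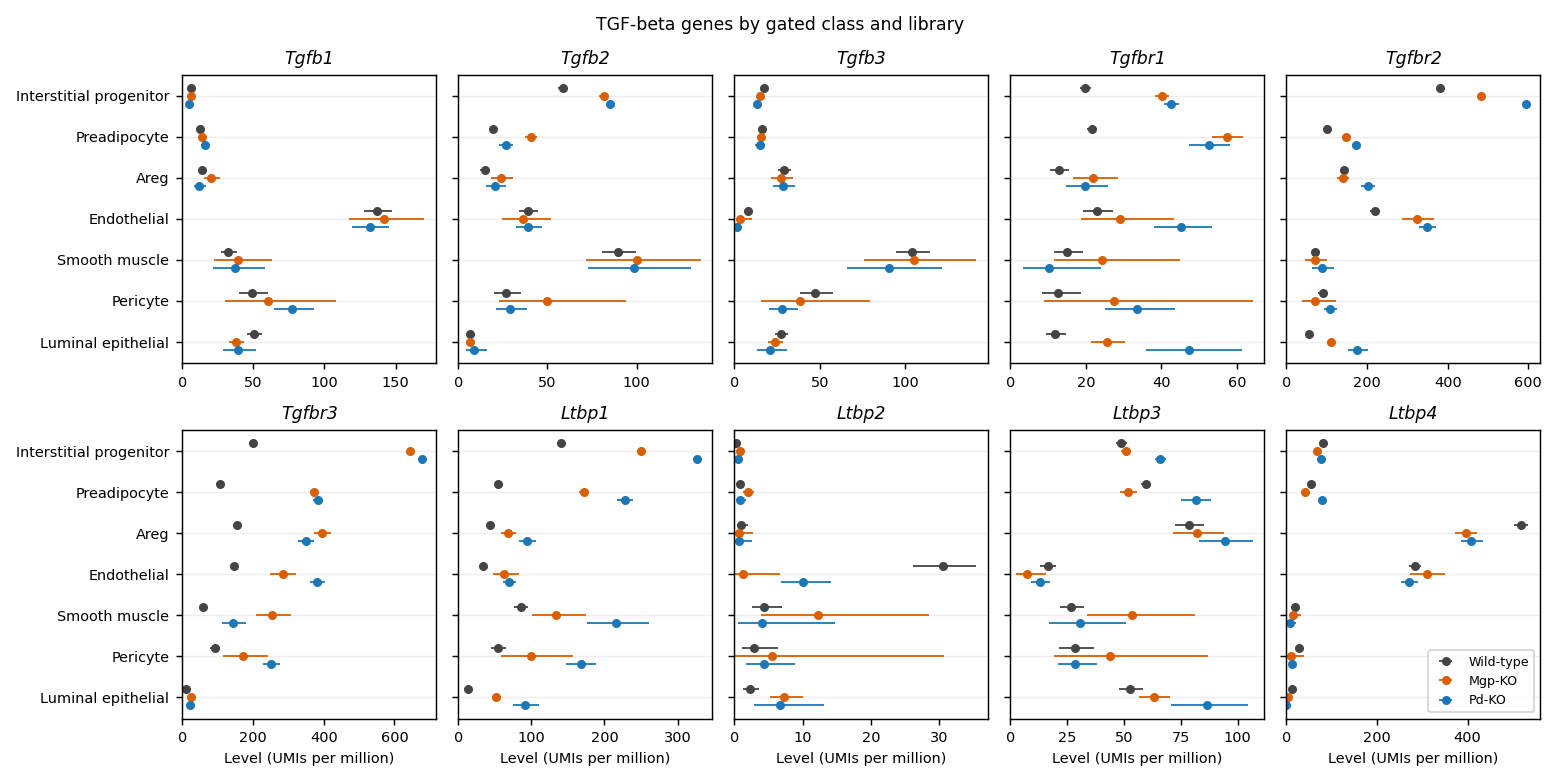
Levels of the 10 genes (CPM, linear axes from 0 that differ between genes) in 3 stromal gates and 4 other gated types, with 1 point per library and exact Poisson intervals at 95% for counting error. *Tgfb1* stands out in endothelial cells at 131.9 to 142 CPM, *Tgfb3* in smooth muscle cells at 90.3 to 105 CPM and *Ltbp4* in Areg cells at 396 to 518 CPM.

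*Tgfb1*, the isoform best known in fibrosis, was highest in endothelial cells among the tested types. Endothelial cells held 137, 142 and 132 CPM, against 11.5, 10.6 and 8.29 CPM in stromal cells. The 3 endothelial values lay within a narrow range and far above every stromal value. The difference was 3.48 on the log2 scale (SE 0.20, adjusted p = 9.93e-09 in edgeR's quasi-likelihood test over all genes, with the library as a block), higher in 3 of 3 libraries. Pericytes came next at 49.4, 60.6 and 77.5 CPM (log2 difference from stromal cells 2.22, SE 0.21, adjusted p = 2.13e-06). Luminal cells (50.6, 38.0 and 39.1 CPM) and smooth muscle cells (32.5, 39.1 and 36.9 CPM) followed and overlapped one another. Both exceeded stromal cells, by 1.89 (SE 0.19, adjusted p = 1.30e-06) and 1.56 (SE 0.22, adjusted p = 7.09e-05). The few leukocytes held 71.9, 153 and 124 CPM, from 2, 3 and 11 UMIs.

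Endothelial cells were 7.82%, 1.82% and 8.22% of the gated cells and held 28.7% (27.0 to 30.5), 9.70% (8.09 to 11.5) and 35.3% (32.5 to 38.1) of the *Tgfb1* UMIs, with exact binomial intervals at 95% for counting error. Stromal cells, the bulk of each library, held 47.4%, 68.8% and 46.7%. The stromal level was below that of free RNA, read from barcodes of 10 to 100 UMIs, at 33.1, 16.5 and 21.8 CPM. The part of background in stromal *Tgfb1* was not tested. Within the stroma, interstitial progenitors held least, at 6.38, 5.89 and 4.63 CPM, below preadipocytes at 12.8, 13.7 and 16.0 CPM (difference −1.18, SE 0.17, adjusted p = 0.000262).

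*Tgfb2* marked smooth muscle cells and, within the stroma, the interstitial progenitors. Smooth muscle cells held 89.8, 100.1 and 98.5 CPM and interstitial progenitors 58.5, 81.5 and 85.2 CPM. Preadipocytes were lower at 19.3, 40.8 and 26.6 CPM, as were Areg cells at 15.1, 23.9 and 20.9 CPM. In wild-type and *Pd*-KO, preadipocytes and Areg cells lay below free RNA, which held 45.2 CPM in *Pd*-KO. Endothelial cells and pericytes lay below it in *Pd*-KO (39.1 and 29.2 CPM). The part of background in these values was not tested. Every interstitial progenitor value exceeded every preadipocyte and Areg value. The difference was 1.55 from preadipocytes (SE 0.13, adjusted p = 5.60e-06) and 2.00 from Areg cells (SE 0.15, adjusted p = 3.51e-06), with all 3 libraries in that direction. Luminal cells were lowest of the tested types at 6.52, 6.78 and 9.14 CPM (log2 difference from stromal cells −3.12, SE 0.26, adjusted p = 2.14e-07). The excess of smooth muscle over all stromal cells was small (0.60, SE 0.23, adjusted p = 0.0487) and missed the threshold when any 1 library was left out (adjusted p = 0.270 without wild-type, 0.101 without *Mgp*-KO and 0.0575 without *Pd*-KO).

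*Tgfb3* was highest in smooth muscle cells. These held 104, 105 and 90.3 CPM, against 17.9, 16.7 and 14.2 CPM in stromal cells, a difference of 2.36 (SE 0.22, adjusted p = 1.66e-06). In pericytes *Tgfb3* was at 47.5, 38.6 and 27.9 CPM (0.78 above stromal cells, SE 0.24, adjusted p = 0.0197). The pericyte call missed the threshold without the wild-type library (adjusted p = 0.0857) and without the *Mgp*-KO library (adjusted p = 0.0977). Endothelial cells were lowest of the tested types, at 7.76, 3.64 and 1.62 CPM (log2 difference from stromal cells −2.07, SE 0.28, adjusted p = 2.45e-05). The tested type with most *Tgfb1* thus had least *Tgfb3*. Among the stromal gates, Areg cells held most, at 28.9, 27.3 and 28.5 CPM, above preadipocytes by 0.90 (SE 0.11, adjusted p = 0.000153) and above interstitial progenitors (interstitial progenitors over Areg cells −0.82, SE 0.11, adjusted p = 0.000177). Areg and luminal cells lay below free RNA in *Mgp*-KO. Preadipocytes and interstitial progenitors lay below it in wild-type and *Mgp*-KO, and endothelial cells in each library. The part of background in these values was not tested.

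The receptor genes were not evenly spread. *Tgfbr2*, the type II receptor that binds ligand, was highest in interstitial progenitors at 380, 483 and 595 CPM. Preadipocytes held 100.0, 149 and 173 CPM and Areg cells 144, 140.4 and 202 CPM. The interstitial progenitor values did not overlap with either, and the differences were 1.94 (SE 0.11, adjusted p = 3.36e-07) and 1.65 (SE 0.11, adjusted p = 1.34e-06). Endothelial cells, at 220, 324 and 349 CPM, came second and did not pass the test against all stromal cells (−0.44, SE 0.22, adjusted p = 0.120). Smooth muscle cells (72.1, 70.8 and 88.2 CPM) and pericytes (90.5, 71.6 and 109 CPM) were lower than stromal cells, with differences of −2.24 (SE 0.25, adjusted p = 6.97e-06) and −2.19 (SE 0.25, adjusted p = 1.06e-05). Free RNA held 95.7, 279.6 and 407 CPM of *Tgfbr2*. The interstitial progenitor values exceeded it in each library. Smooth muscle cells, pericytes and luminal cells (57.1, 110.2 and 176 CPM) lay below it in each. Preadipocytes and Areg cells lay below it in both knockouts, and endothelial cells in *Pd*-KO. The part of background in these values was not tested.

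*Tgfbr1*, the gene of ALK5, differed less between types. Preadipocytes held 21.6, 57.4 and 52.6 CPM, interstitial progenitors 19.9, 40.2 and 42.7 CPM and Areg cells 12.9, 22.01 and 19.8 CPM. Stromal cells that passed none of these gates held 31.4 to 73.0 CPM. Areg cells were lowest of these gates in each library, below preadipocytes, with a difference of −1.10 (SE 0.15, adjusted p = 0.000281). Smooth muscle cells, at 15.0, 24.4 and 10.3 CPM, were below stromal cells, with a difference of −1.16 (SE 0.29, adjusted p = 0.00503). Basal epithelial cells held 33.4, 94.5 and 132 CPM, above the stromal value in each library, from 31, 119 and 19 cells. Free RNA held 13.1, 26.6 and 50.5 CPM of *Tgfbr1*, above the Areg and luminal values in each library. It was above the smooth muscle value in both knockouts and above the pericyte value in wild-type and *Pd*-KO. In *Pd*-KO it was also above the interstitial progenitor and endothelial values. The part of background in these values was not tested.

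*Tgfbr3*, the betaglycan gene, was high in stromal, Schwann and basal epithelial cells, and luminal cells nearly lacked it. Interstitial progenitors held 201, 643 and 677 CPM, and luminal cells 10.8, 24.3 and 22.4 CPM. The luminal difference from all stromal cells was −4.55 (SE 0.29, adjusted p = 2.51e-08). Free RNA held 94.0, 369 and 517 CPM of *Tgfbr3*, so the luminal values stood well below the free RNA of their own library. Smooth muscle cells (58.1, 253.9 and 143.6 CPM) and pericytes (92.5, 170.7 and 251.8 CPM) also lay below it in each library, and endothelial cells (146, 284 and 382 CPM) in both knockouts. In *Pd*-KO, preadipocytes (383.8 CPM) and Areg cells (350.1 CPM) lay below it too. The part of background in these values was not tested. Schwann and neural crest cells held 303, 886 and 1425 CPM and basal epithelial cells 170, 642 and 1112 CPM. The Schwann value was the highest of any gated type in each library.

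The 4 LTBP genes, whose products hold latent TGF-β in the matrix, also differed in where they were transcribed. *Ltbp1* was led by interstitial progenitors at 141, 249.4 and 326 CPM, with preadipocytes at 54.0, 171 and 228 CPM and Areg cells at 43.5, 68.7 and 93.6 CPM. Interstitial progenitors exceeded Areg cells by 1.85 (SE 0.18, adjusted p = 1.82e-05). Smooth muscle cells held 85.6, 134 and 215 CPM, which did not pass the test against stromal cells (−0.54, SE 0.23, adjusted p = 0.0810). Luminal cells were below stromal cells, with a difference of −2.30 (SE 0.24, adjusted p = 1.49e-06). Free RNA held 142 and 283 CPM of *Ltbp1* in *Mgp*-KO and *Pd*-KO. Areg, endothelial and luminal cells lay below free RNA in each library. Smooth muscle cells and pericytes lay below it in both knockouts, and preadipocytes in *Pd*-KO. The part of background in these values was not tested.

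*Ltbp4*, whose product also promotes elastic fiber assembly, had the sharpest stromal pattern. Areg cells held 518, 396 and 409 CPM, preadipocytes 54.6, 41.9 and 79.4 CPM and interstitial progenitors 80.9, 68.3 and 77.6 CPM. The Areg values exceeded all others in every library. Preadipocytes, smooth muscle cells, pericytes and luminal cells lay below free RNA in each library, and interstitial progenitors in both knockouts. Free RNA held 127 CPM of *Ltbp4* in *Pd*-KO. The part of background in these values was not tested. Areg cells exceeded preadipocytes by 3.01 (SE 0.17, adjusted p = 7.87e-07), and the difference of interstitial progenitors from Areg cells was −2.47 (SE 0.16, adjusted p = 1.30e-06). Endothelial cells came second at 284, 311 and 271 CPM (1.35 above all stromal cells, SE 0.33, adjusted p = 0.00363), a call that missed the threshold without the *Mgp*-KO library (adjusted p = 0.0784). In smooth muscle cells *Ltbp4* was at 19.2, 14.7 and 8.21 CPM, a difference of −2.96 from stromal cells (SE 0.45, adjusted p = 0.000122).

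*Ltbp3*, the form that is known for its role in bone and tooth development, was shared by stromal and luminal cells and called lower in the other tested types. Areg cells held 78.6, 82.4 and 94.4 CPM, luminal cells 52.8, 63.1 and 86.4 CPM and all stromal cells 57.2, 53.3 and 70.8 CPM. The difference between luminal and stromal cells did not pass the test (−0.10, SE 0.22, adjusted p = 0.714). Endothelial cells were low in each library, at 16.4, 7.28 and 12.9 CPM, with a difference of −2.42 from stromal cells (SE 0.25, adjusted p = 2.43e-06). Pericytes held 28.4, 44.1 and 28.5 CPM (−1.42, SE 0.26, adjusted p = 0.000682). Smooth muscle cells held 26.8, 53.7 and 30.8 CPM (−1.06, SE 0.26, adjusted p = 0.00495). Both of these calls missed the threshold without the *Pd*-KO library.

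*Ltbp2*, which binds fibrillin but is known for holding little latent TGF-β, was close to absent from stromal cells (0.662, 1.30 and 0.645 CPM). Basal epithelial cells held the most, at 72.4, 111 and 132 CPM. In endothelial cells it was at 30.5, 1.21 and 10.0 CPM. The wild-type endothelial value was thus above that of both knockouts, and the *Mgp*-KO value, a single UMI, lay below the *Mgp*-KO stromal value. The endothelial difference from stromal cells was 4.06 (SE 0.62, adjusted p = 9.06e-05), higher in 2 of 3 libraries, and fell to 2.75 without the wild-type library (adjusted p = 0.00427).

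**Figure D2:**
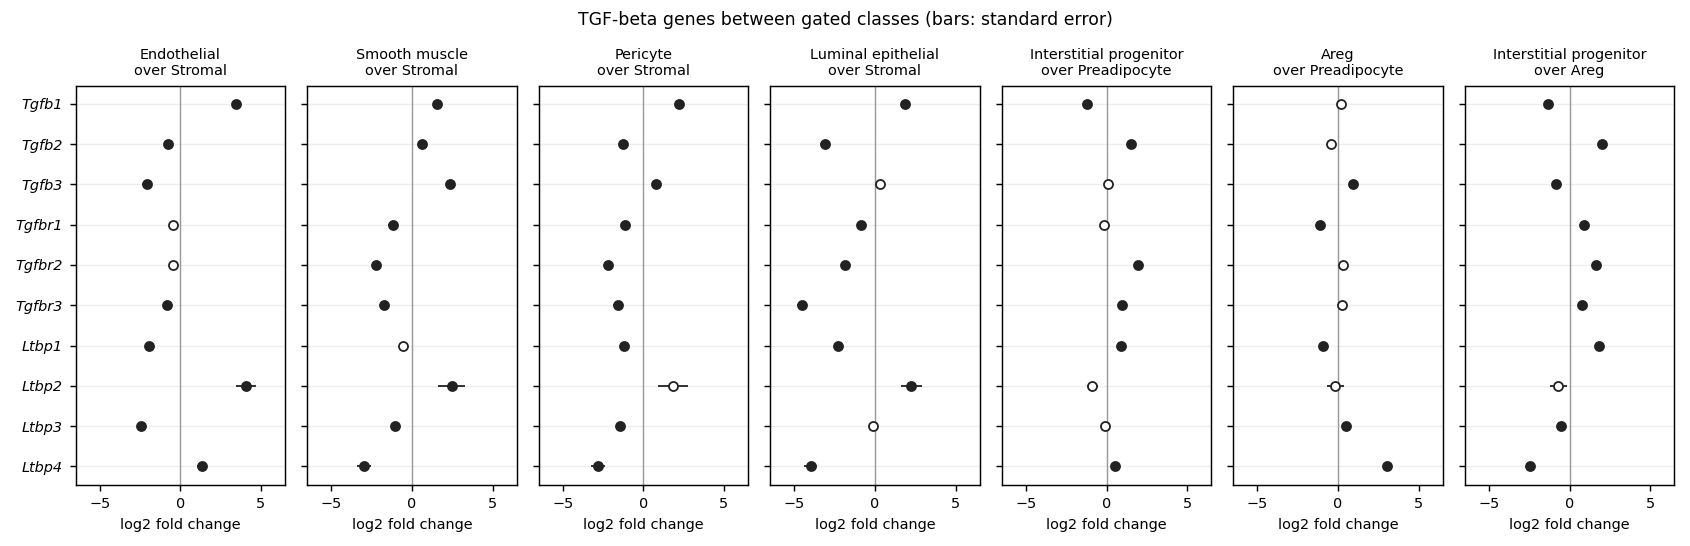
Log2 fold change of each gene between gated types (first 4 panels, against all stromal cells) and between stromal gates (last 3 panels), with bars for the standard error of the fit. Filled points have an adjusted p under 0.05. *Tgfb1* lies to the right in all 4 panels against stromal cells, and *Tgfb2*, *Tgfbr2* and *Ltbp1* lie to the right of 0 in both panels that start from interstitial progenitors.

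Counted over the family, endothelial cells differed from stromal cells in 8 of 10 genes, 3 higher and 5 lower, where 22.3% of 13421 genes were higher and 26.7% lower. *Tgfb2* and *Tgfbr3*, counted as lower, were higher in endothelial cells in wild-type (39.3 against 32.7 CPM and 146.3 against 144 CPM). *Ltbp2*, counted as higher, was lower in *Mgp*-KO (1.21 against 1.30 CPM). Without the *Mgp*-KO library, 5 of the 10 passed, since *Tgfb2* (adjusted p = 0.115), *Tgfbr3* (adjusted p = 0.0667) and *Ltbp4* did not. Without the *Pd*-KO library, *Tgfb2* (adjusted p = 0.220) and *Tgfbr3* (adjusted p = 0.0987) missed the threshold. In smooth muscle cells 4 genes were higher and 5 lower (18.1% and 22.1% of all genes), in pericytes 2 and 7 (16.4% and 21.3%) and in luminal cells 2 and 6 (29.2% and 32.1%). The 3 receptors were called lower than in stromal cells in smooth muscle cells, pericytes and luminal cells alike. In *Pd*-KO, luminal *Tgfbr1* was nevertheless above the stromal value (47.4 against 45.2 CPM). *Tgfbr1* lost its call without the *Mgp*-KO library in pericytes (adjusted p = 0.0564) and luminal cells (adjusted p = 0.131). Without *Pd*-KO, *Ltbp2* and *Ltbp3* lost theirs in smooth muscle cells (adjusted p = 0.102 and 0.0821), and *Tgfb2* and *Ltbp3* in pericytes (adjusted p = 0.100 and 0.0523). *Ltbp3* in smooth muscle cells also missed without wild-type (adjusted p = 0.0824), and in *Mgp*-KO it was slightly above the stromal value (53.7 against 53.3 CPM).

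Between the stromal gates, interstitial progenitors exceeded preadipocytes in 5 genes, *Tgfb2*, *Tgfbr2*, *Tgfbr3*, *Ltbp1* and *Ltbp4*, and were lower in *Tgfb1* (20.4% and 21.4% of 14398 genes). The *Ltbp4* call (0.54, SE 0.16, adjusted p = 0.0189) missed the threshold without wild-type (adjusted p = 0.106) and without *Mgp*-KO (adjusted p = 0.131). In *Pd*-KO, *Ltbp4* was slightly lower in interstitial progenitors than in preadipocytes (77.6 against 79.4 CPM). Both gates lay below the free RNA of *Ltbp4* in each knockout. Areg cells exceeded preadipocytes in *Tgfb3*, *Ltbp3* and *Ltbp4* and were lower in *Tgfbr1* and *Ltbp1* (15.2% and 16.3%); *Ltbp3* missed without *Mgp*-KO (adjusted p = 0.0601). Interstitial progenitors exceeded Areg cells in *Tgfb2*, all 3 receptors and *Ltbp1*, and were lower in *Tgfb1*, *Tgfb3*, *Ltbp3* and *Ltbp4* (15.1% and 13.8%).

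Genes that act with the family were read from 5 lists, and the shares of all genes given above for each contrast apply to their counts. The first held 15 genes of latent TGF-β activation, of which 14 were tested between types. Endothelial cells were higher in 4 and lower in 8 of them, with a median of −1.66 against −0.06 over all genes. *Nrros*, which anchors latent TGF-β on cells, was 7.29 higher in endothelial cells (SE 0.37, adjusted p = 3.66e-09), whereas the protease genes *Mmp2* and *Mmp14* were lower (−5.00, SE 0.53, and −3.28, SE 0.24). In smooth muscle cells the anchor gene *Lrrc32* was 2.95 higher (SE 0.30, adjusted p = 3.50e-06). Of 4 co-receptors and alternative receptors, endothelial cells were higher in *Eng* (4.08, SE 0.19), *Bambi* (2.76, SE 0.28) and *Acvrl1* (1.30, SE 0.18), the first and last of which are known for carrying TGF-β family signals in endothelium, and lower in *Sdc2* (−4.32, SE 0.25). Of 7 tested microfibril partners, to which LTBPs dock, none was higher than in stromal cells in any of the 4 other types and 5 to 7 were lower, with *Fbn1* at −3.55 in endothelial and −5.16 in luminal cells.

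Among 11 Smads and their regulators, endothelial cells were higher in 2 and lower in 4. *Smad7*, the inhibitory Smad, was 1.47 higher (SE 0.31, adjusted p = 0.00120) and *Smad3* was lower (−1.74, SE 0.28, adjusted p = 0.000126). Of 13 TGF-β responsive genes, which include *Ltbp2*, 3 were higher and 9 lower in endothelial cells. In smooth muscle cells *Acta2* and *Tagln*, contractile genes that are also known as targets of TGF-β, were 8.74 (SE 0.63) and 8.61 (SE 0.51) higher, and *Col1a1* was lower (−4.85, SE 0.34). The contractile pair marks smooth muscle identity itself. Across smooth muscle cells, pericytes and luminal cells, 2 or 3 of the activation genes were higher and 7 to 10 lower, up to 3 of the Smad list were higher and 3 to 5 lower, and 1 to 4 of the responsive genes were higher and 8 to 10 lower.

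Within the stroma, 4 of 8 microfibril partners were higher and none lower in Areg cells than in preadipocytes, led by *Adamtsl2* (3.58, SE 0.36), whose product binds LTBP1 and fibrillin. All 4 co-receptor genes were higher, *Eng* by 1.14 (SE 0.11). Among responsive genes 5 were higher, *Tgfbi* by 3.18 (SE 0.13) and *Ccn2* by 3.10 (SE 0.18), and 4 lower, *Postn* at −2.56 (SE 0.10). The feedback gene *Pmepa1* was higher by 2.00 in Areg cells (SE 0.13, adjusted p = 2.19e-06) and by 1.98 in interstitial progenitors (SE 0.13, adjusted p = 1.02e-06), each against preadipocytes. Interstitial progenitors were higher than preadipocytes in *Fbn1* (2.60, SE 0.13) and *Fn1* (2.26, SE 0.16), and lower in *Thbs1* (−1.95, SE 0.20).

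The next question was how the family differed between genotypes, and with 1 library each it has values and no test. Ratios are log2 ratios of CPM in stromal cells from which the median over all tested genes was taken off (0.14 for *Mgp*-KO and 0.18 for *Pd*-KO over wild-type, 0.03 for *Pd*-KO over *Mgp*-KO), and brackets give exact intervals at 95% for counting error. A gene was counted as higher or lower past 1.5-fold. In *Mgp*-KO stromal cells 6 genes were higher and 1 lower, where 23.6% of 14152 genes were higher and 11.3% lower. In *Pd*-KO stromal cells 5 were higher and 1 lower, where 26.1% of 13975 genes were higher and 19.0% lower. These comparisons share the wild-type library. Between the knockouts, none of the 10 was higher and 1 was lower (8.31% and 9.89% of 13969 genes). Within the gates *Ltbp2* had too few UMIs, and of the other 9 genes 3, 5 and 0 were past 1.5-fold in either direction among interstitial progenitors (28.2%, 36.6% and 14.9% of all genes) and 4, 3 and 2 among preadipocytes (36.3%, 40.5% and 16.3%), for *Mgp*-KO over wild-type, *Pd*-KO over wild-type and *Pd*-KO over *Mgp*-KO.

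The genes that were higher were the long ones. *Ltbp1* spans 387 kb of the genome, *Tgfbr3* 183 kb, *Ltbp2* 93.3 kb, *Tgfbr2* 91.1 kb, *Tgfb2* 83.2 kb and *Tgfbr1* 61.7 kb, and these 6 are the ones past 1.5-fold in *Mgp*-KO. *Ltbp4*, *Tgfb3*, *Tgfb1* and *Ltbp3* span 17.6 to 32.6 kb and none of them was past it on the high side. All genes shared this pattern: of the 3394 tested genes that span over 60 kb, 59.7% were past 1.5-fold higher in *Mgp*-KO than in wild-type, and of the 6397 genes under 20 kb 7.96% were. For *Pd*-KO the shares were 65.8% and 8.52%, and between the knockouts 13.02% and 6.23%. The Cell Ranger version differs along with both wild-type comparisons, and its part in them was not tested. The ratios of single genes over wild-type in all stromal cells are therefore also given after subtracting the median ratio of the 200 genes closest to it in span (adjusted for span).

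**Figure D3:**
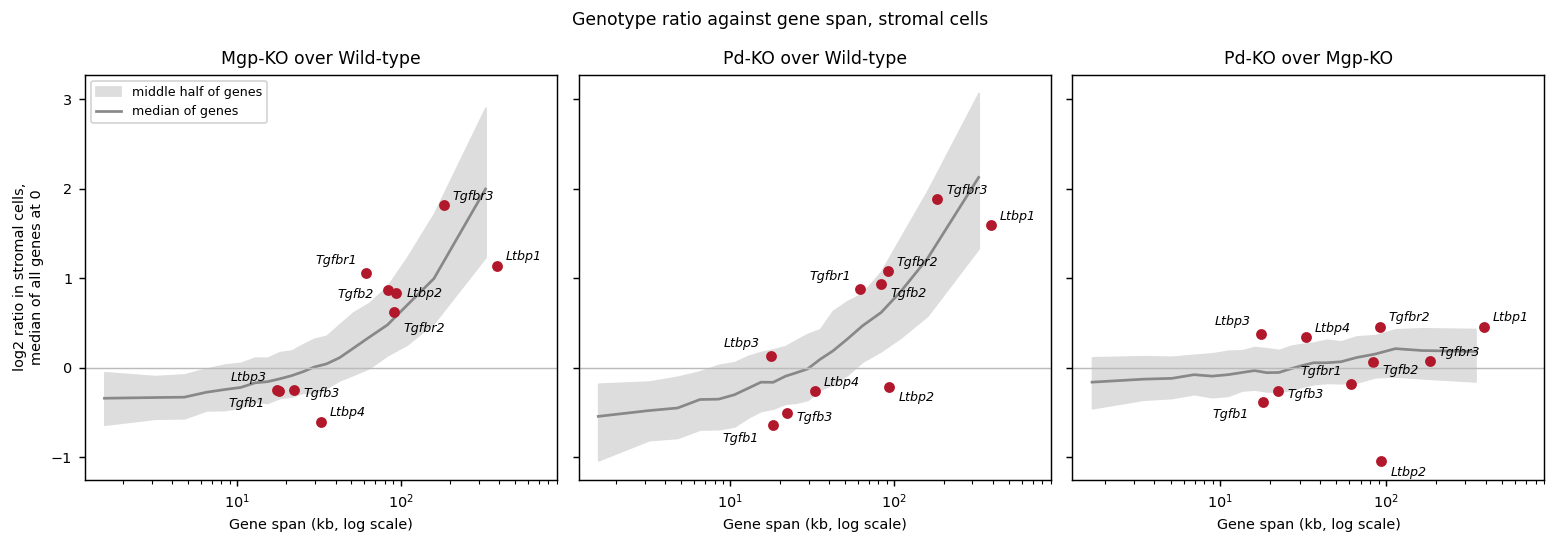
Log2 ratio in stromal cells against gene span (kb, log axis) for each pair of libraries, with the median and interquartile range of all tested genes in 20 bins of span in gray and the 10 genes as points. Against wild-type the gray band climbs with span in both knockouts, *Tgfbr3* lies a little above its median and *Ltbp1* beyond its right end and below it, and between the knockouts the band is nearly flat.

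Among the ligands, *Tgfb2* was at 32.7 CPM in wild-type and 65.8 and 70.5 CPM in *Mgp*-KO and *Pd*-KO stromal cells. The ratios were 0.86 (0.80 to 0.93) and 0.93 (0.87 to 0.99), and 0.41 and 0.41 after adjustment for span. Within interstitial progenitors alone they were 0.34 and 0.37, and within preadipocytes 0.95 and 0.21. Interstitial progenitors, which have more *Tgfb2*, made up 2342 of 7590 stromal cells in wild-type, 5682 of 11084 in *Mgp*-KO and 4398 of 6836 in *Pd*-KO mice, so the mix of gates moved with this ratio.

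*Tgfb1* was low in stromal cells throughout, below the free RNA of each library, at 11.5, 10.6 and 8.29 CPM, with ratios of −0.26 (−0.39 to −0.13) and −0.65 (−0.79 to −0.50). The latter was the one call on the low side in *Pd*-KO, and without centering it was −0.47 and within 1.5-fold. Adjusted for span the ratios were −0.13 and −0.50, which left no call. In *Pd*-KO the ratio before that adjustment was −0.63 in interstitial progenitors and 0.07 in preadipocytes. *Tgfb3*, at 17.9, 16.7 and 14.2 CPM, had ratios of −0.25 (−0.35 to −0.15) and −0.51 (−0.62 to −0.40), within 1.5-fold of wild-type, and −0.20 and −0.45 adjusted for span. In *Pd*-KO it was past 1.5-fold lower within interstitial progenitors (−0.59) and in female cells (−0.66), and within it in preadipocytes (−0.37) and in male cells (−0.48). Free RNA held 19.1, 34.2 and 11.4 CPM of *Tgfb3*, above the stromal level in wild-type and *Mgp*-KO.

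Of the receptors, *Tgfbr1* was at 21.8 CPM in wild-type and 50.2 and 45.2 CPM in the knockouts. Free RNA, at 13.1, 26.6 and 50.5 CPM, lay above the *Pd*-KO value, in which the part of background was not tested. Its ratios were 1.06 (0.99 to 1.13) and 0.88 (0.80 to 0.96), and 0.74 and 0.46 adjusted for span, so in *Mgp*-KO it was the one gene of the family still past 1.5-fold on the high side after adjustment. Within interstitial progenitors the ratios were 0.87 and 0.93 and within preadipocytes 1.29 and 1.03, past 1.5-fold in each. Between the knockouts *Tgfbr1* differed by −0.18 (−0.25 to −0.11).

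*Tgfbr2* was at 202, 343 and 481 CPM, with ratios of 0.62 (0.59 to 0.64) and 1.07 (1.05 to 1.10). The *Mgp*-KO ratio lay near the limit and was 0.55, within it, when scaled by TMM factors. Adjusted for span these were 0.06 and 0.33. Within interstitial progenitors they were 0.20 and 0.47 and within preadipocytes 0.45 and 0.54, none past 1.5-fold. *Tgfbr3* had the largest ratio of the family, from 144 CPM in wild-type to 559 and 599.6 CPM in the knockouts, 1.81 (1.79 to 1.84) and 1.88 (1.85 to 1.91), which became 0.45 and 0.40 adjusted for span. The 200 genes nearest to *Tgfbr3* in span had a median uncentered ratio of 1.51 and 1.66. *Tgfbr3* was also past 1.5-fold higher over wild-type in both knockouts in smooth muscle cells (2.12 and 1.23, and 1.80 and 0.32 adjusted for span), pericytes (0.83 and 1.26, adjusted 0.31 and 0.24), endothelial cells (0.87 and 1.22, adjusted 0.30 and 0.26) and luminal cells (1.03 and 0.86, adjusted −0.03 and −0.54). The free RNA of *Tgfbr3* was higher in the knockouts as well, at 369 and 517 CPM against 94.0 CPM. It lay above the levels of these 4 types in both knockouts. The part of background in the ratios of these types was not tested.

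*Ltbp1* turned its sign with the adjustment. It was at 84.9, 207 and 289.9 CPM, with ratios of 1.14 (1.10 to 1.18) and 1.59 (1.56 to 1.63), and −0.97 and −0.69 adjusted for span. Its 200 neighbors in span had median uncentered ratios of 2.25 and 2.47. Free RNA held 142 and 283 CPM of *Ltbp1* in *Mgp*-KO and *Pd*-KO, against 207 and 289.9 CPM in stromal cells. The part of background in these ratios was not tested. *Ltbp4* went the other way, at 105, 76.6 and 99.2 CPM, with −0.60 (−0.65 to −0.56) in *Mgp*-KO, the one call on the low side there (−0.46 and within 1.5-fold without centering), and −0.26 (−0.31 to −0.22) in *Pd*-KO. Its ratios adjusted for span were −0.64 and −0.32. In Areg cells, where *Ltbp4* was highest, they were −0.53 (−0.63 to −0.43) and −0.59 (−0.69 to −0.50) before that adjustment. Preadipocytes differed, at 54.6, 41.9 and 79.4 CPM, with the *Pd*-KO value above wild-type. *Ltbp3*, at 57.2, 53.3 and 70.8 CPM, stayed within 1.5-fold in both, at −0.25 and 0.13, and −0.09 and 0.26 adjusted for span. Free RNA held 67.0 CPM of *Ltbp3* in *Mgp*-KO, and 86.0 and 127 CPM of *Ltbp4* in *Mgp*-KO and *Pd*-KO, above the stromal level of the same library. *Ltbp2* rested on 74, 102 and 42 UMIs in stromal cells, and was the one gene that differed past 1.5-fold between the knockouts, at −1.05 in *Pd*-KO over *Mgp*-KO (−1.60 to −0.51). Over wild-type its ratios were 0.83 (0.39 to 1.28) and −0.21 (−0.80 to 0.35). Adjusted for span they were 0.22 and −0.97, so the *Mgp*-KO value came within 1.5-fold and the *Pd*-KO value went past it on the low side.

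**Figure D4:**
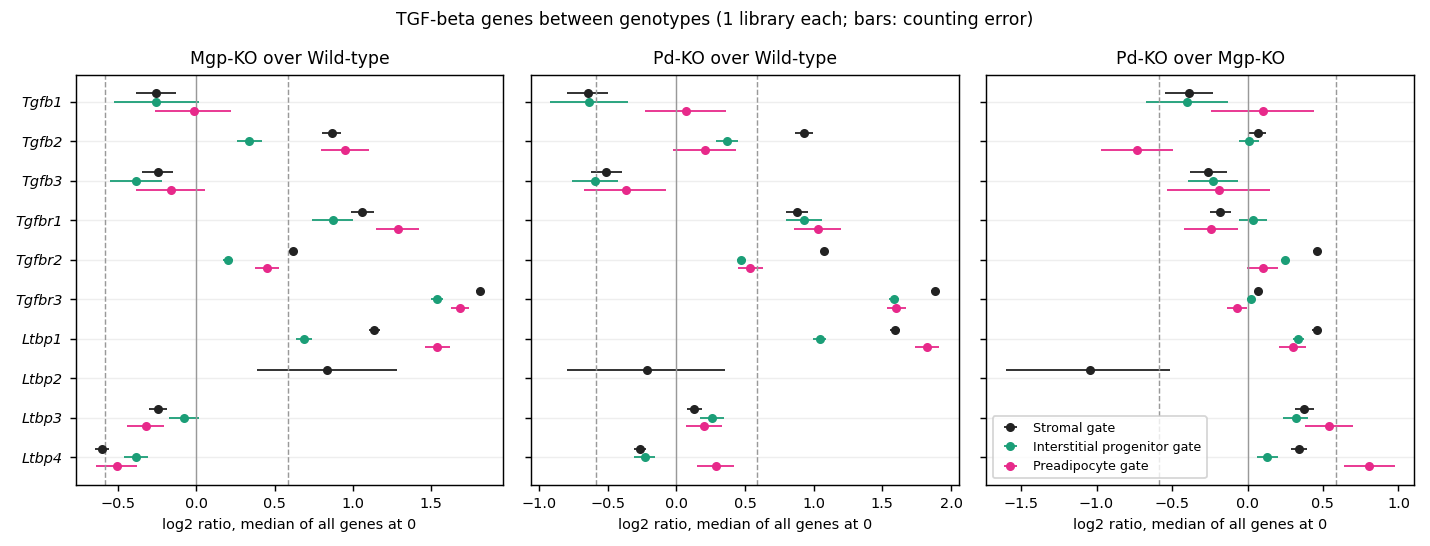
Log2 ratios between genotypes in all stromal cells, interstitial progenitors and preadipocytes, with the median of all tested genes at 0, exact intervals at 95% for counting error and dashed lines at 1.5-fold. *Ltbp2* had too few UMIs for the separate gates. *Tgfbr1*, *Tgfbr3* and *Ltbp1* lie past the line in all 3 gates in both panels over wild-type, and in *Pd*-KO over *Mgp*-KO most points lie between the lines.

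Between the knockouts, whose headers name the same Cell Ranger version, the family moved little in all stromal cells. *Tgfbr2* was 0.46 higher in *Pd*-KO (0.43 to 0.48), *Ltbp1* 0.46 (0.43 to 0.49), *Ltbp3* 0.38 (0.32 to 0.44) and *Ltbp4* 0.34 (0.29 to 0.39), all within 1.5-fold. In preadipocytes *Ltbp4* was past it at 0.81 (0.64 to 0.98), from 576 and 581 UMIs, and *Tgfb2* was lower at −0.73 (−0.97 to −0.49), from 561 and 195 UMIs. Preadipocyte *Ltbp4* lay below free RNA in both knockouts (79.4 against 127 CPM in *Pd*-KO). Preadipocyte *Tgfb2* lay below it in *Pd*-KO (26.6 against 45.2 CPM). The part of background in these 2 ratios was not tested.

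Outside the stroma, the *Tgfb1* of endothelial cells stayed within 1.5-fold. Its ratios over wild-type were −0.04 (−0.33 to 0.24) in *Mgp*-KO and −0.22 (−0.40 to −0.05) in *Pd*-KO. *Tgfb3* in smooth muscle cells had ratios of 0.00 (−0.49 to 0.46) and −0.28 (−0.77 to 0.17). In pericytes *Tgfb3* was lower in *Pd*-KO, at −0.95 (−1.49 to −0.43) from 45 and 97 UMIs. The mural cell types rest on 46 *Mgp*-KO pericytes and 108 smooth muscle cells, so smaller differences were not detectable there.

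The endothelial *Ltbp2* signal differed most between libraries. The 774 wild-type endothelial cells held 173 UMIs in 71 cells (9.17%), with 103 of these UMIs in 20 cells. The 673 *Pd*-KO cells held 31 UMIs in 14 cells (2.08%) and the 221 *Mgp*-KO cells 1 UMI. The centered ratios were −1.77 (−2.37 to −1.21) in *Pd*-KO and −4.74 (−10.1 to −2.25) in *Mgp*-KO. Since so few cells carried it, 6 genes of arterial endothelium (*Gja5*, *Gja4*, *Sox17*, *Hey1*, *Bmx* and *Efnb2*), a list added after these values were seen, were summed in the same cells. They stood at 594, 708 and 551 CPM, so that the sum was above wild-type in *Mgp*-KO and below it in *Pd*-KO, where each of them but *Efnb2* was lower. The median endothelial cell held 6044, 3232 and 3891 UMIs, and the part of arterial cells and of depth in the *Ltbp2* difference was not tested. Of 13 tested TGF-β responsive genes, *Ltbp2* among them, 10 were past 1.5-fold lower in *Mgp*-KO endothelial cells and none higher (11.3% of all genes lower). In *Pd*-KO endothelial cells all 13 were lower (10.9%). Their median ratios were −1.91 and −1.77, and the part of free RNA in them was not tested.

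The partner lists were mixed between genotypes in stromal cells. Over all genes, 23.6% were past 1.5-fold higher and 11.3% lower in *Mgp*-KO over wild-type, and 26.1% and 19.0% in *Pd*-KO. These shares apply to the counts of every list. Of 13 tested activation genes, 5 were past 1.5-fold higher in *Mgp*-KO and none lower, and 5 higher and 1 lower in *Pd*-KO. The median ratios of 0.41 and 0.50 became 0.27 and 0.29 adjusted for span. *Mmp14*, a membrane protease, was at 0.81 (0.79 to 0.83) and 0.79 (0.77 to 0.81), and 0.98 and 0.98 adjusted for span. *Itgb6*, a subunit of an integrin that activates TGF-β, was at 3.32 (2.71 to 3.98) and 2.65 (2.00 to 3.34), from 25, 193 and 103 UMIs, and 2.58 and 1.84 adjusted for span. Among 8 microfibril partners 2 were higher and 2 lower in *Mgp*-KO, and 3 higher and none lower in *Pd*-KO. *Fbn1* was 1.05 higher in *Pd*-KO over wild-type and −0.46 adjusted for span, and 1.07 (1.06 to 1.08) higher in *Pd*-KO than in *Mgp*-KO, where the adjusted value was 0.87.

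Among 11 Smads and regulators, 5 were higher in each knockout, and 2 were lower in *Pd*-KO. The ubiquitin ligase genes *Smurf1* and *Smurf2* led with 1.46 (1.37 to 1.55) and 1.44 (1.39 to 1.495) in *Mgp*-KO and 2.15 (2.06 to 2.24) and 1.96 (1.91 to 2.02) in *Pd*-KO, and stayed past 1.5-fold after adjustment at 1.02 and 0.88 in *Mgp*-KO and 1.498 and 1.25 in *Pd*-KO. *Smad3* was 1.61 higher in *Pd*-KO (1.53 to 1.68) and 0.71 adjusted for span. None of the 4 co-receptor genes was past 1.5-fold in *Mgp*-KO, and *Bambi* was lower in *Pd*-KO at −0.85 (−0.997 to −0.71), which came within 1.5-fold at −0.505 adjusted for span.

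Of 13 TGF-β responsive genes, 1 was higher and 3 lower in *Mgp*-KO, and 1 higher and 5 lower in *Pd*-KO, with medians of −0.39 and −0.21. *Acta2* and *Tagln* were lower in both, at −1.73 (−1.80 to −1.66) and −1.75 (−1.83 to −1.67) in *Mgp*-KO and −2.86 (−2.96 to −2.76) and −2.59 (−2.70 to −2.49) in *Pd*-KO. Adjusted for span, *Acta2* was at −1.62 and −2.70 and *Tagln* at −1.47 and −2.26. Smooth muscle cells, in which *Acta2* and *Tagln* are most abundant, were 577, 108 and 122 cells in the 3 libraries, and the part of their free RNA in the stromal values was not tested. In pericytes, 8 of 10 tested genes of this list were lower in each knockout and none higher (17.0% and 13.1% of all genes lower).

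The genes whose levels followed each member most closely were taken over 21 sums, 7 gated types by 3 libraries, among 12586 other genes, and the points share their libraries. *Tgfb1* was followed by *Myo10* (Pearson's r = 0.952 on the log2 scale), *2510046G10Rik* (0.939) and *Lrrfip1* (0.934), and *Tgfb2* by *Ehd1* (0.908), *Npepl1* (0.900) and *Ackr3* (0.886). For *Tgfb3* they were *Ptges3l* (0.921), *Tspan3* (0.907) and *Usp2* (0.898). *Tgfbr1* was closest to *Tor1aip2* (0.893), *Arhgap28* (0.854) and *Lmbr1l* (0.850), *Tgfbr2* to *Pcsk6* (0.920), *Samhd1* (0.920) and *Phf11b* (0.901), and *Tgfbr3* to *Grb10* (0.940), *Plscr4* (0.937) and *Trip10* (0.925). For the LTBP genes the lists were *Adam9* (0.909), *Myo9a* (0.903) and *Neo1* (0.895) for *Ltbp1*, *Unc119* (0.821), *Psmb7* (0.813) and *Nectin2* (0.811) for *Ltbp2*, *Ephb3* (0.941), *Sh3bp1* (0.910) and *Phgdh* (0.903) for *Ltbp3*, and *Kctd12* (0.947), *Mest* (0.922) and *Kcnk6* (0.915) for *Ltbp4*. None of these genes belongs to the family.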

How the data were processed

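The authors deposited 1 count matrix of UMIs per gene and barcode for each of 3 libraries (10x Genomics 3′ chemistry, unfiltered barcodes). The files do not agree on how they were made: the processing notes name Cell Ranger 6.1.1 and GRCm39, the study's methods mm10, and the headers Cell Ranger 4 (wild-type) and 7.1.0 (both knockouts). Depth was 145242566, 89572427 and 76383468 UMIs in kept cells of wild-type, *Mgp*-KO and *Pd*-KO. Gates asked for UMIs of at least 3 of a type's markers (4 for stromal cells) and a minimum share of the cell's UMIs of 0.1% (1% for stromal cells, 0.2% for preadipocytes), set after looking at the marker distributions. No doublet caller was run. Instead, 274, 136 and 183 cells that passed gates of different types were set aside as mixed, and 340, 272 and 451 passed none. Pairs of libraries shared 35 to 40 barcodes of kept cells.

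UMIs were summed per library and type and tested between types with edgeR 4.0.16 (R 4.3.3; filterByExpr, TMM, glmQLFit and glmQLFTest, library as a block), with Benjamini-Hochberg adjustment over all genes. The 3 libraries were the replicates of these tests and differ in genotype. With the library as a block, p-values and standard errors rest on a residual spread between libraries that is pooled over all types of a fit. They do not measure the spread of a single pair of types, and the pooled spread holds the genotype as well. Genotypes, with 1 library each, have log2 CPM ratios for genes with at least 100 UMIs over both libraries and exact conditional binomial intervals, which cover counting error only. Gene spans came from GENCODE (GRCm38), matched by gene ID, and promoters from RefSeq. Alternatives included DESeq2 1.42.0. All 10 genes are named, from each list at most the 4 called genes with the largest change, and for likeness the 3 genes of highest r in log2(CPM + 1) over genes that reached 10 CPM somewhere. The lists cover activation of latent TGF-β, microfibril partners, co-receptors, Smads and their regulators, and TGF-β responsive genes. The members and lists were chosen with earlier results of these data known. The promoter table used here had no match for *Tgfb3* and *Tgfbr3*. Annotated genes on the opposite strand overlap *Ltbp2* (*D030025P21Rik*), *Tgfb2* (*Gm29491*) and *Tgfb3* (*Gm48008* and *Ttll5*). Some genes of the lists and of these overlaps are not reported here.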

Additional observations from a re-analysis of the deposited data

Results flagged for a closer look

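*Ltbp2* had ratios of opposite sign in *Mgp*-KO over wild-type: its log2 ratio was 0.83 in stromal cells, from 74 and 102 UMIs, and −4.74 in endothelial cells, from 173 UMIs and 1 UMI. Adjusted for span these were 0.22, within 1.5-fold, and −4.98. The difference between the types was not tested.

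In barcodes of 10 to 100 UMIs, which hold mostly free RNA and served above only as a background level, several members were above their wild-type level. *Tgfbr3* was at 369 CPM in *Mgp*-KO and 517 CPM in *Pd*-KO, against 94.0 CPM in wild-type. *Tgfbr2* was at 279.6 and 407 CPM against 95.7 CPM, and *Ltbp1* at 142 and 283 CPM against 47.0 CPM. In *Pd*-KO, *Tgfb2* was at 45.2 CPM against 24.4 CPM, *Tgfbr1* at 50.5 CPM against 13.1 CPM and *Ltbp4* at 127 CPM against 74.8 CPM. In *Mgp*-KO, *Ltbp3* was at 67.0 CPM against 30.5 CPM. *Tgfbr3*, *Tgfbr2*, *Ltbp1*, *Tgfb2* and *Tgfbr1* span over 60 kb, and *Ltbp3* and *Ltbp4* do not. The Cell Ranger version differs along with these comparisons as well. No adjustment for span was made for free RNA, and no share over all genes was computed.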

How the results depend on the processing

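Of 624 values of the 10 genes between types under the alternatives, 572 kept their side of the threshold, 42 lost a call and 10 gained one. No value that was called before or after turned its sign. Sign changes of values without a call in either setting are counted among the 572. Calls against stromal cells numbered 34 in all and 27 to 33 when a library was left out, and those between stromal gates 20 in all and 19 to 20. Without a library term the stromal gates kept 10 calls and the other types 27. No paired analysis of genotypes was possible because each genotype has 1 library and the label number 1 is shared by all. In the tests between types, the library block pairs the types of a library.

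Between genotypes, 315 of 348 values kept their side of the 1.5-fold limit, 25 lost a call and 4 gained one. The sign turned in 4 values that were called before or after. Sign changes of values without a call in either setting are counted among the 315. With 7 genes past 1.5-fold in *Mgp*-KO over wild-type, 3 were past it after adjustment for span, 3 within interstitial progenitors and 4 within preadipocytes. With 6 in *Pd*-KO over wild-type, 2 were past it adjusted for span and 3 within preadipocytes. The share of all genes past 1.5-fold after adjustment for span was not computed. The 1 gene past it between the knockouts, *Ltbp2*, had under 100 UMIs and was not tested in female or in male cells alone or in the separate gates. Of the other 9 genes 0 were past it in female cells, in male cells and in interstitial progenitors, and 2 in preadipocytes. *Ltbp1* turned to −0.97 and −0.69 adjusted for span, *Tgfb1* to 0.0711 in *Pd*-KO preadipocytes over wild-type, and *Tgfb2* to −0.73 in *Pd*-KO preadipocytes over *Mgp*-KO. The cause of these was not tested. The lowest counts, such as 46 *Mgp*-KO pericytes, limit what could be seen outside the stroma.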
